A study of Mus musculus with 3 samples.

Results

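Retnla and Retnlg are neighbouring genes of the mouse resistin-like family, and their levels were followed here through single cells of the bleomycin-injured lung. They were 2 of 32287 features in the count matrices and were selected on the values themselves: earlier results of these data had shown both to be high in airway-derived libraries. Their levels are therefore given as a description without a test. Values are unique molecular identifiers (UMIs, whole-number counts of captured RNA molecules) in cell barcodes with 500 or more detected genes and at most 15% mitochondrial UMIs. Cell classes were set by gates on other marker genes.

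All mice carried the alleles Scgb1a1-CreER, Sftpc-DreER and the reporter R26-TLR, and lungs were taken 4 weeks after bleomycin, a drug that injures the alveolar epithelium. Scgb1a1 is the secretoglobin of airway club cells and drove CreER, while Sftpc, a surfactant gene of alveolar type 2 (AT2) cells, drove DreER. Whole lung was digested and sorted by fluorescence into red cells with tdTomato (Club-Tracer), green cells with ZsGreen (AT2-Tracer) and cells with both colours (BASC-Tracer, for bronchioalveolar stem cells). Each group was 1 library, with no uninjured library among those analysed here and no number of mice given in the labels, so nothing below has a replicate check. All intervals are 95% intervals that cover counting error only, and leave out the spread between cells and between animals.

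Resistin-like proteins are small, cysteine-rich secreted factors. Retnla encodes RELMα (FIZZ1), which was first described in allergic lung inflammation. Its transcription in epithelium and in alternatively activated macrophages is induced by interleukin 4 and interleukin 13 through STAT6. Retnlg encodes RELMγ, known mainly from bone marrow and neutrophils. Retnlb, which encodes RELMβ, is best known from intestinal goblet cells, and Retn, which encodes resistin, from fat tissue in the mouse.

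In the GRCm38 assembly (the GENCODE M21 annotation), Retnla (ENSMUSG00000061100) lay on the forward strand of chromosome 16 from 48842551 to 48844461. Retnlg (ENSMUSG00000022651) followed on the same strand from 48872621 to 48874496, with 28159 bases between the genes. Each had 4 annotated exons. Their transcripts were 599 and 593 bases long and matched at 84.5% of 587 aligned bases. The longest run that both transcripts shared exactly was 49 bases, so reads that fall mostly within such runs could be assigned to the wrong gene.

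The stretches before the starts of both genes are shown because they are alike and both hold a palindromic motif of the STAT6 type. The letters are from RefSeq on GRCm38.p6, forward strand, 5′ to 3′, at chr16:48842359-48842550 for Retnla and chr16:48872358-48872607 for Retnlg, and stop before the first transcribed base of either annotation. Capitals mark matches to TTCNNNNGAA.
Retnla: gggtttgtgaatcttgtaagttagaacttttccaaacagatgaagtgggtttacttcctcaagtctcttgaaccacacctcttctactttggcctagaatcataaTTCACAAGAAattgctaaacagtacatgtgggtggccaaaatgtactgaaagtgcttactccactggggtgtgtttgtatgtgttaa
Retnlg: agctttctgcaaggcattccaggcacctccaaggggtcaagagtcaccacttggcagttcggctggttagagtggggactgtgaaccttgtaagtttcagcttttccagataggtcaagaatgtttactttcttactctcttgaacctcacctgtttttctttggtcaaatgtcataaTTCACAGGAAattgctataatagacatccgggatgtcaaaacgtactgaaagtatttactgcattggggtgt

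These stretches matched at 138 of 175 aligned bases (78.9%). The Retnla match began 145 bases before its RefSeq start and the Retnlg match 72 bases before its own. On either strand, 5.85% of 32851 RefSeq promoter windows of 250 bases held TTCNNNNGAA. The second motif searched, TTGCNNAA of the C/EBP type, was in 9.56% of those windows on either strand. It occurred beside the STAT6-type match in Retnla, 134 bases before the RefSeq start. In Retnlg it occurred elsewhere, 246 bases before the RefSeq start on the reverse strand. Neither motif overlapped the other. A match of letters says nothing about binding.

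The kept barcodes numbered 3196 in the Club-Tracer, 1402 in the BASC-Tracer and 5859 in the AT2-Tracer library, with 60155449, 27872078 and 69159996 UMIs and median depths of 15406, 15221.5 and 9682 UMIs. Scgb1a1 stood at 178020, 80199 and 1141 UMIs per 1000000 UMIs (CPM) in that order, and the order matched the library labels. Pairs of libraries shared 73 to 122 of the deposited barcodes and 6 to 23 of the kept ones. Barcodes that passed the club gate made up 24.9% of the Club-Tracer, 11.8% of the BASC-Tracer and 0.119% of the AT2-Tracer library, so the level of a gene in a whole library also depends on its mix of cells.

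Retnla was highest in the Club-Tracer and lowest in the AT2-Tracer library. In the Club-Tracer library it reached 389545 UMIs, or 6476 CPM (6455 to 6496). It came to 97888 UMIs, or 3512 CPM (3490 to 3534), among BASC-Tracer barcodes. The AT2-Tracer library held 11637 Retnla UMIs, or 168 CPM (165 to 171). Retnla was thus 38.5-fold higher in the Club-Tracer than in the AT2-Tracer library (37.8 to 39.2), 20.9-fold higher in the BASC-Tracer than in the AT2-Tracer library (20.5 to 21.3) and 1.84-fold higher in the Club-Tracer than in the BASC-Tracer library.

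Retnlg followed the same order at a far lower level. It stood at 39.8 CPM (38.2 to 41.4) in the Club-Tracer, 25.7 CPM (23.9 to 27.7) in the BASC-Tracer and 2.81 CPM (2.42 to 3.23) in the AT2-Tracer library. The Club-Tracer library was 14.2-fold above the AT2-Tracer library (12.3 to 16.5). Both genes were at least 2-fold higher in the Club-Tracer than in the AT2-Tracer library on the scale of log2(CPM + 5), as were 6.01% of the 9218 genes at 10 CPM or more in either. In the BASC-Tracer against the AT2-Tracer library that share was 3.37%, with 8.34% apart in either direction, and both genes were again among them. Neither was 2-fold apart between the Club-Tracer and BASC-Tracer libraries, where 3.5% of genes were and 0.75% were higher in the Club-Tracer library. Since the genes were chosen for these contrasts, nothing is read from these counts. The other members of the family were scarce: Retnlb stood at 2.63, 2.26 and 0.116 CPM in the 3 libraries, and Retn had 0, 4 and 15 UMIs.

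A few barcodes carried much of the AT2-Tracer signal. The 1% of barcodes with the most Retnla held 25.1% of its UMIs in the Club-Tracer, 50.8% in the BASC-Tracer and 86.2% in the AT2-Tracer library. Without those barcodes Retnla stood at 4979, 1774 and 23.6 CPM, and Retnlg at 37.1, 19.6 and 1.8 CPM. The 7 barcodes of the AT2-Tracer library that passed the club gate held 1987, 1822, 1780, 94, 3, 0 and 0 Retnla UMIs. Their 5686 UMIs were close in number to the 5256 UMIs of all 1534 AT2-gated barcodes there. Removing the 275 barcodes with the highest doublet scores took out 4 of these 7, which held 5683 of the 5686 UMIs, and brought the AT2-Tracer library to 87.1 CPM. None of the 7 shared its barcode with another library.

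Among classes with at least 20 barcodes, club-gated barcodes had the highest Retnla level in both the Club-Tracer and the BASC-Tracer library. The club gate asked for Scgb1a1 together with Cyp2f2, Cldn10, Cckar and Hp, and the median club-gated barcode held 7522 Scgb1a1 and 2 Sftpc UMIs in the Club-Tracer library. In that library 796 club-gated barcodes held 261436 Retnla UMIs, or 13937 CPM (13884 to 13990). The 166 such barcodes of the BASC-Tracer library held 62227 UMIs, or 13606 CPM (13500 to 13714). Club-gated barcodes accounted for 67.1% and 63.6% of all Retnla UMIs of the 2 libraries.

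Retnla in club-gated barcodes did not differ between these libraries beyond what single barcodes and gate limits moved. The ratio of Club-Tracer to BASC-Tracer was 1.02. Without the barcode richest in Retnla the levels were 13548 and 12542 CPM. With all gate limits divided by 2 they were 14007 and 9023 CPM. Club-gated barcodes devote a large share of their UMIs to Scgb1a1, and scaled without Scgb1a1, Sftpc and mitochondrial genes the levels were 22912 and 20897 CPM. Between the libraries 0.442% of 7009 genes at 10 CPM or more lay 2-fold apart within the club gate, 0.171% of them higher in the Club-Tracer library, and neither Retnla nor Retnlg was among them.

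**Figure D1:**
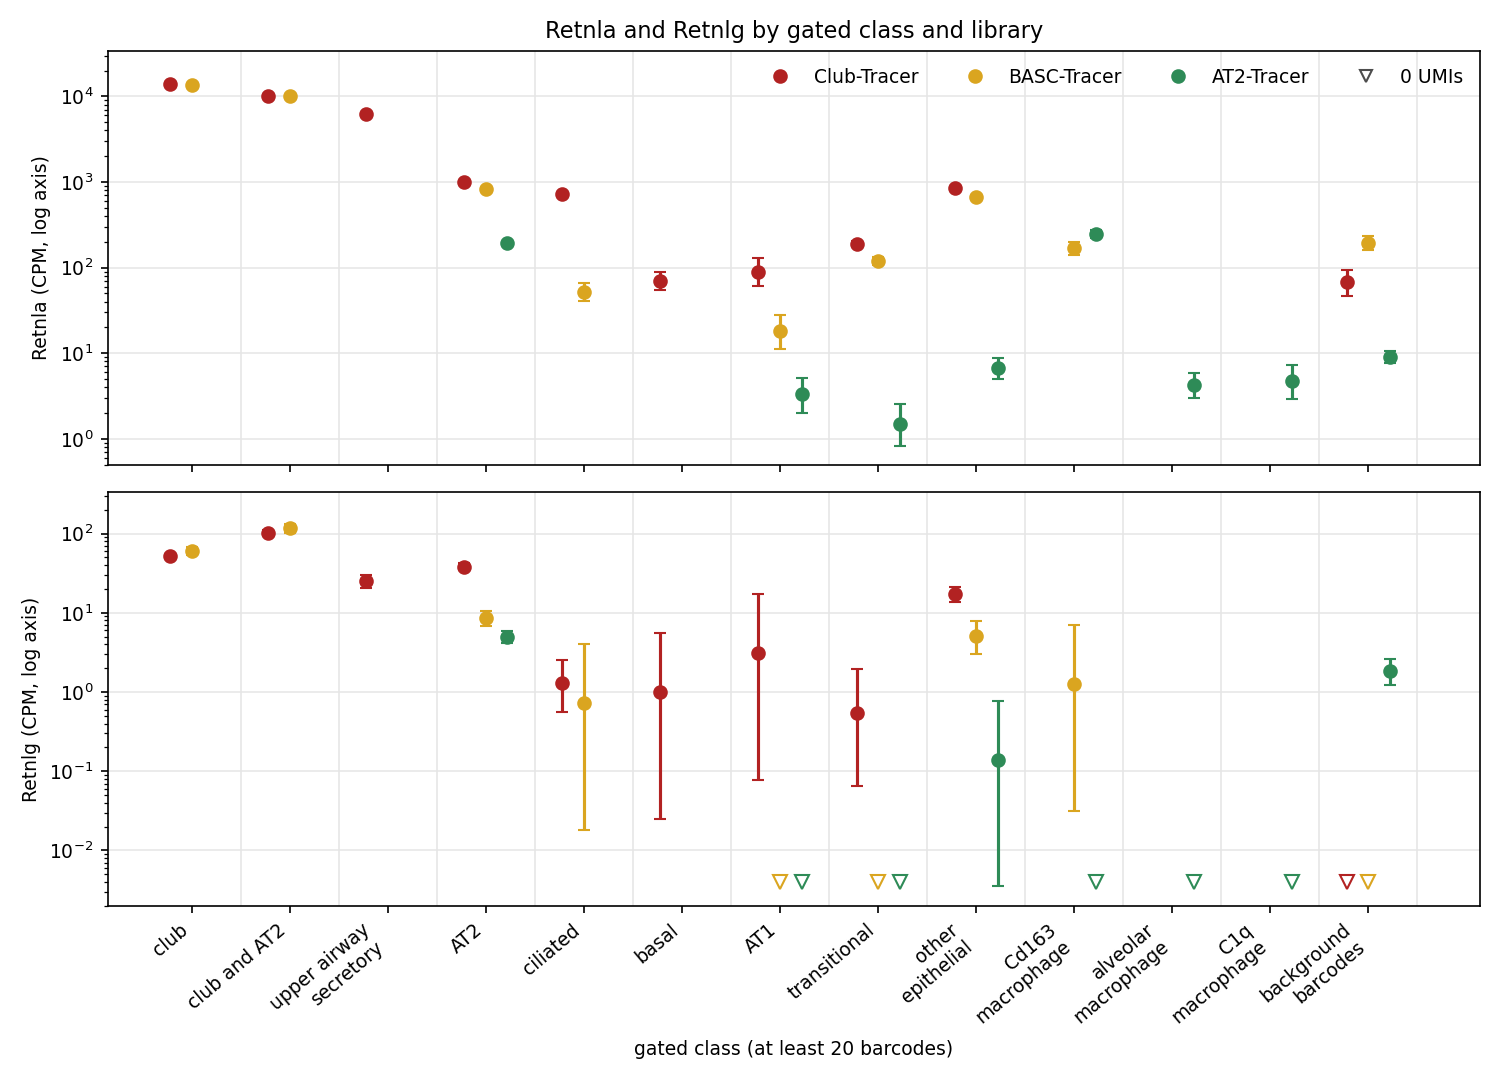
Retnla (upper plot) and Retnlg (lower plot) in CPM on log axes, for the main gated classes, where a library held at least 20 barcodes of the class (barcodes high in MHC class II genes, mixed ones and those under 2000 UMIs are not drawn). Colours mark the library, bars are 95% Poisson intervals that cover counting error only, and open triangles mark 0 UMIs and have no value on the axis. Club-gated barcodes lead for Retnla at 13937 and 13606 CPM, and barcodes that passed both the club and the AT2 gate lead for Retnlg at 102.5 and 116.7 CPM, of which the latter is 61.7 CPM without 1 barcode.

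Other secretory barcodes followed. Barcodes that passed both the club and the AT2 gate stood at 10166 CPM of Retnla (10093 to 10240, 258 barcodes) in the Club-Tracer and 10010 CPM (9881 to 10141, 71 barcodes) in the BASC-Tracer library. They held a median of 15.5 and 19 Sftpc UMIs, against 1407 and 1827 in barcodes that passed only the AT2 gate, which does not use Sftpc. In the Club-Tracer library, 186 barcodes gated as upper airway secretory, by markers such as Scgb3a1 and Bpifa1, stood at 6186 CPM (6118 to 6255). The corresponding class of the BASC-Tracer library had only 4 barcodes.

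Most ciliated and basal barcodes held little Retnla. Ciliated barcodes of the Club-Tracer library stood at 723 CPM, but the highest of the 434 held 1117 UMIs together with 8257 Scgb1a1 UMIs, and the median was 1 UMI. Counts of 10 UMIs or more were found in 15 of them and of 100 or more in 6, and without the highest barcode the class stood at 549 CPM (531 to 568). The 72 ciliated barcodes of the BASC-Tracer library stood at 52.1 CPM. Basal barcodes of the Club-Tracer library stood at 69.9 CPM (54.5 to 88.3), and at 37.0 CPM without the barcode of 34 UMIs, beside 67.7 CPM in the background barcodes described next.

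Free RNA puts UMIs of an abundant gene into barcodes of cells that do not make it, so each level was set beside non-epithelial barcodes of the same library. These were gated leukocytes, endothelial cells and fibroblasts, without the Cd163 macrophages described further on, which were set apart after their values were seen. The Club-Tracer library had 58 such barcodes with a mean of 0.603 Retnla UMIs, a highest value of 3 and 67.7 CPM (47.1 to 94.1). The BASC-Tracer library had 45 with 196 CPM, of which 1 barcode held 100 of 109 UMIs. Without it they stood at 16.2 CPM (7.43 to 30.8). The AT2-Tracer library had 1501 with 9.03 CPM, and 4.42 CPM without the barcode that held 71 UMIs. Club-gated levels lay far above these values in both libraries.

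Retnla was spread very unevenly among club-gated barcodes. Among Club-Tracer barcodes the lowest value was 0, the lower quartile 5, the median 60, the upper quartile 283 and the highest 8219 UMIs per barcode. The highest barcode devoted 12.1% of its 68012 UMIs to Retnla. Among BASC-Tracer barcodes the median was 74, the quartiles 5 and 189.5 and the highest 5627 UMIs. Counts of 10 UMIs or more were found in 550 of 796 and 122 of 166 club-gated barcodes, and counts of 1000 or more in 86 and 16. At the other end, 55 club-gated barcodes of the Club-Tracer library held none.

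The 10% of club-gated barcodes with the most Retnla held 61.5% of its UMIs in the Club-Tracer and 73.6% in the BASC-Tracer library. After each barcode was thinned to 1500 UMIs, a Retnla UMI was found in 74.9% (71.7 to 77.9) and 72.3% (64.8 to 78.9) of club-gated barcodes. Before thinning the shares were 93.1% and 88.0%. The Fano factor, the variance divided by the mean, was 37.98 and 47.94 after thinning, where Poisson sampling of equal levels gives a value near 1. Retnla UMIs went together with depth across club-gated barcodes, with Spearman correlations of 0.55 (796 barcodes) and 0.39 (166 barcodes) with all UMIs, a description in which the barcodes of a library share its depth and free RNA.

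**Figure D2:**
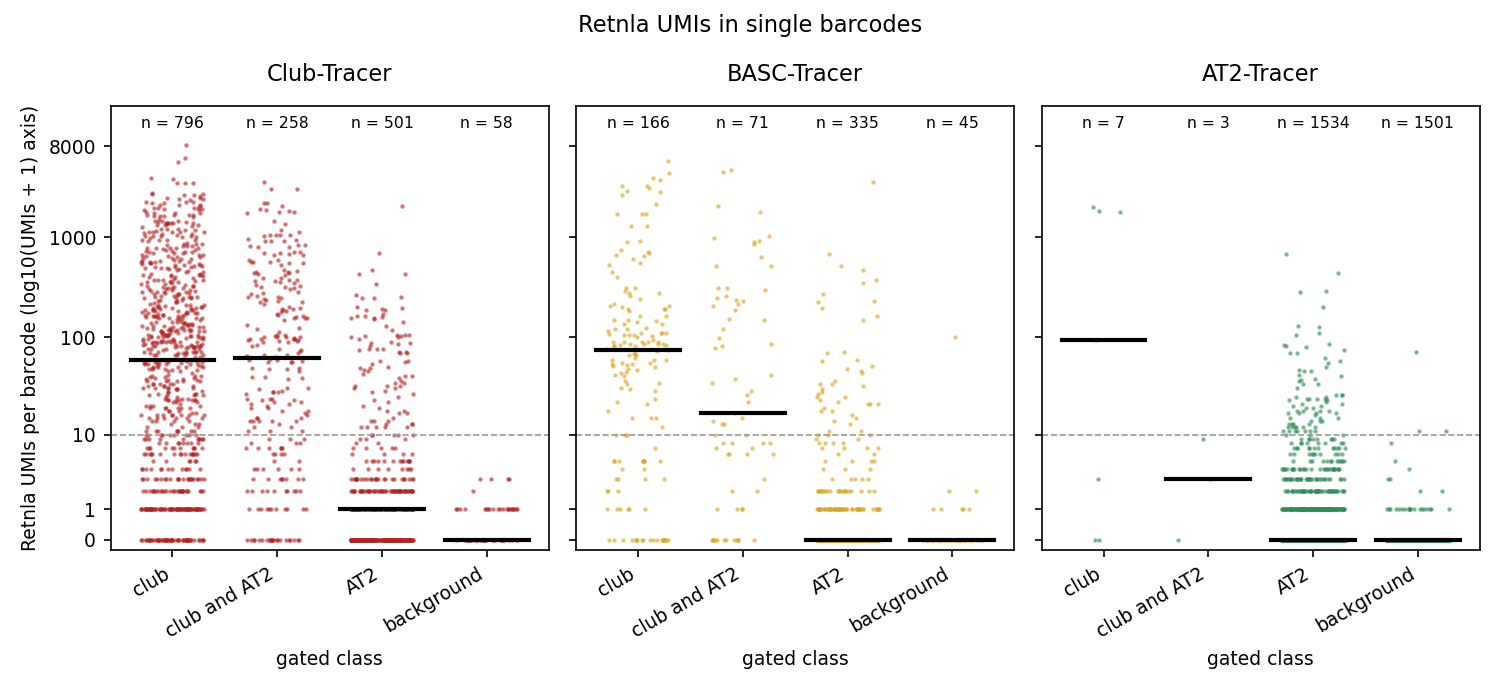
Retnla UMIs in single barcodes on a log10(UMIs + 1) axis, by gated class (n above each) and library. Each point is 1 barcode, black lines are medians and the dashed line marks 10 UMIs. Club-gated barcodes run from 0 to 8219 UMIs in the Club-Tracer library, while its 58 background barcodes reach 3.

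**Figure D3:**
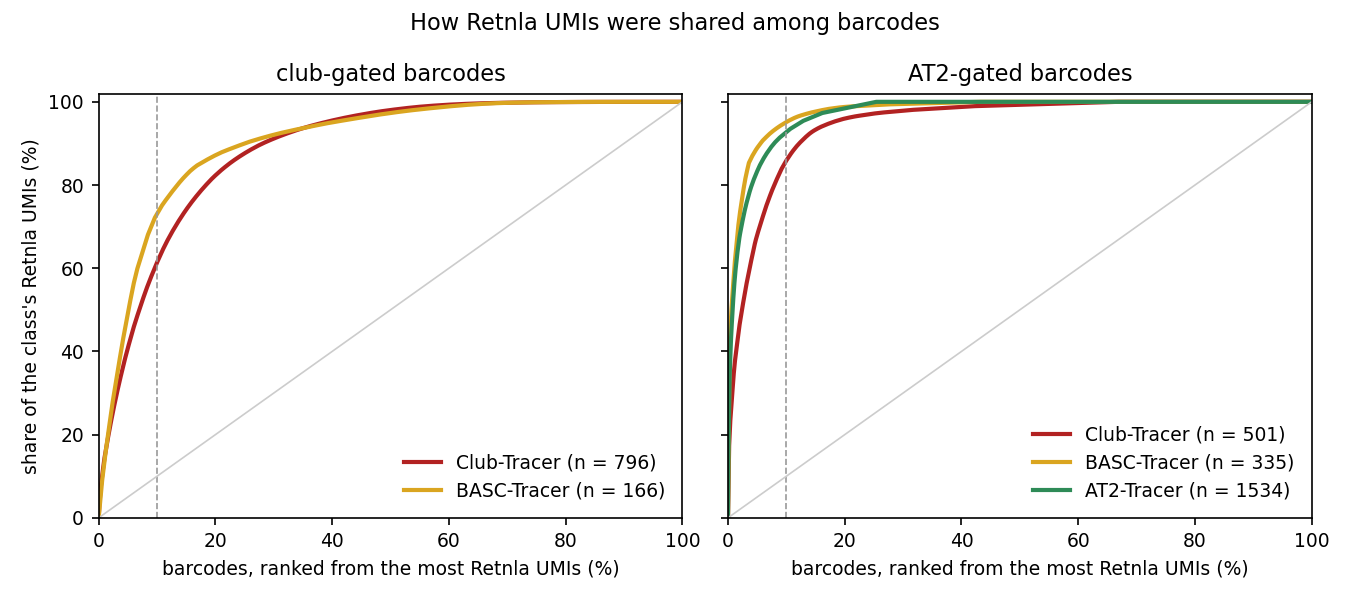
Cumulative share of a class's Retnla UMIs (y axis, %) over its barcodes ranked from the most Retnla (x axis, %), for club-gated and AT2-gated barcodes of each library with at least 20 of them. The grey diagonal is an equal share for all barcodes and the dashed line marks 10% of barcodes, which hold 61.5% and 73.6% of Retnla in the club gate and 85.8% to 95.3% in the AT2 gate.

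Club-gated barcodes were also split by Scgb3a2, a second club cell secretoglobin, and the order of the groups depended on the measure. In the Club-Tracer library, barcodes with 20 or more Scgb3a2 UMIs per 10000 stood at 14942 CPM of Retnla and those under that limit at 12184 CPM. Among BASC-Tracer barcodes the order of the summed levels was opposite, at 12378 and 15212 CPM. Medians were 81 against 26 UMIs in the Club-Tracer and 77 against 73 in the BASC-Tracer library. Counts of 10 UMIs or more were found in 76.6% against 57.0% and in 79.7% against 67.8% of barcodes. These medians and shares were higher with Scgb3a2 in both libraries, but they are not scaled for depth. The groups with more Scgb3a2 were deeper, with medians of 22083 against 19838 UMIs (Club-Tracer) and 30957 against 20141 UMIs (BASC-Tracer). After division by each barcode's UMIs, Spearman correlations of Retnla with Scgb3a2 in the club gate were 0.22 and -0.09.

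The club-gated barcodes richest in Retnla differed from the poorest in a small set of genes. The 10% with the most Retnla per UMI (80 and 17 barcodes) were set beside the lower 50% (398 and 83), scaled without Retnla itself. This is a cut through a range, not a cell type: 54 and 24 further barcodes lay within 1.5 times of the limit. The 12 genes named in each direction were chosen after their values were seen, as those furthest apart in both libraries. Of 1847 genes at 50 CPM or more in the Club-Tracer library 3.09% were 2-fold apart and 0.92% higher in the Retnla-rich barcodes. Of 2210 genes of the BASC-Tracer library 7.56% were apart and 2.81% higher.

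Cxcl2 and Cxcl1, which encode chemokines that attract neutrophils, were among the genes higher on the Retnla-rich side. Cxcl2 stood at 242 against 22.4 CPM in the Club-Tracer and 256 against 12.5 CPM in the BASC-Tracer library. Cxcl1 stood at 209 against 49.6 CPM and at 355 against 163 CPM. Lcn2, which encodes an iron-siderophore binding protein of the acute phase, stood at 2107 against 574 CPM and at 2795 against 369 CPM. Lrg1, another acute-phase gene, stood at 903 against 185 CPM and at 1181 against 148 CPM. The others were Chil1, Qsox1, Ptgs1, Cxcl15, Slc34a2, Cp, Orm1 and Saa3. Of these, Chil1, Cxcl15 and Slc34a2 are also markers of AT2 cells, and Slc34a2 was part of the AT2 gate.

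Cdkn1a, Ccng1 and Phlda3, each a known target of p53, were among the genes higher in the lower 50%. Cdkn1a, which encodes the cell cycle inhibitor p21, stood at 126 CPM in the Retnla-rich against 414 CPM in the Retnla-poor barcodes of the Club-Tracer library, and at 34.8 against 518 CPM in the BASC-Tracer library. Ccng1 stood at 54.9 against 159 CPM and at 50.5 against 261 CPM, and Phlda3 at 22.0 against 85.1 CPM and at 3.48 against 102.3 CPM. Upk3a, a uroplakin gene, stood at 8.74 against 84.6 CPM and at 0 against 58.7 CPM. The others were Igfbp7, Ccn1, Emp2, Hopx, Gas6, Psca, Ephx1 and Timp3. Of these, Emp2 and Hopx are also markers of AT1 cells, the flat gas-exchange cells.

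Depth moved with this split. The Retnla-rich barcodes held medians of 38780.5 and 39508 UMIs, against 16780.5 and 24500. Among barcodes with 20000 or more UMIs, all 24 genes kept their direction in both libraries. The log2 ratios there were 3.08 and 3.88 for Cxcl2, 1.57 and 2.90 for Lcn2, and -1.81 and -3.55 for Cdkn1a. These barcodes are part of the split from which the genes were chosen, so the repeat is no independent check. Their median depths still differed, at 40789 against 31658 UMIs (Club-Tracer) and 55582 against 37618 UMIs (BASC-Tracer), so it does not remove depth. Sftpc differed in opposite directions, with log2 ratios of -2.99 in the Club-Tracer and 1.71 in the BASC-Tracer library, and its part in the split was not tested. The log2 ratios were -0.26 and 0.39 for the receptor subunit gene Il4ra, -0.26 and -0.42 for Il13ra1, and 0.03 and -0.17 for Stat6, which encodes their signal carrier. Retnlg, at 2.99 and 3.19, was higher on the Retnla-rich side in both libraries.

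AT2-gated barcodes held much less Retnla than club-gated ones. It was 2-fold higher in the club gate in both libraries, as were 2.07% of genes in the Club-Tracer library (13% of genes apart in either direction) and 2.94% in the BASC-Tracer library (14.3% in either direction). The AT2 gate used Lamp3, Slc34a2, Napsa, Abca3, Sftpa1, Sftpd and Etv5. In the Club-Tracer library 501 such barcodes stood at 999.8 CPM (982 to 1018), with a median of 1, an upper quartile of 4 and a highest value of 2013 UMIs. The 335 of the BASC-Tracer library stood at 824 CPM (806 to 841), with a median of 0 and a highest value of 3497. The 1534 of the AT2-Tracer library stood at 194 CPM (189 to 200), with a median of 0 and a highest value of 679. The ranges of the 3 libraries overlap. Retnla was at least 2-fold higher than in the AT2-Tracer library in both others, as were 2.23% of genes in the Club-Tracer library (4.8% apart in either direction) and 1.22% in the BASC-Tracer library (1.7% in either direction). Retnlg was 2-fold apart between the AT2-gated barcodes of the Club-Tracer and BASC-Tracer libraries and Retnla was not, where 1.05% of genes were apart and 0.409% higher in the former.

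These sums rest on small numbers of barcodes and on the gate. The 10% of AT2-gated barcodes with the most Retnla held 85.8%, 95.3% and 92.7% of its UMIs in the 3 libraries (Club-Tracer, BASC-Tracer, AT2-Tracer). Without the highest barcode the levels were 829, 480 and 169 CPM. The highest BASC-Tracer barcode held 3497 Retnla, 66 Scgb1a1 and 1 Sftpc UMIs, so it passed the AT2 gate without the defining surfactant transcript. With gate limits doubled the levels were 2338, 564 and 224 CPM, and with limits divided by 2 they were 563, 645 and 171 CPM. The order of the Club-Tracer and BASC-Tracer libraries therefore depended on the gate, while both stayed above the AT2-Tracer library.

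The thinned shares of AT2-gated and background barcodes had separate intervals in the AT2-Tracer library only, and depths were unequal in all 3 libraries. After thinning, a Retnla UMI was found in 23.0% (19.3 to 26.9) of AT2-gated and 24.1% (13.9 to 37.2) of background barcodes of the Club-Tracer library, whose median depths were 23086 and 4969.5 UMIs. These shares overlap at unequal original depths, and thinning lowers a fixed amount of free RNA more in the deeper barcodes, so no difference or likeness is read from them. In the BASC-Tracer library the shares were 14.3% (10.8 to 18.5) and 6.67% (1.40 to 18.3), with intervals that overlap, at median depths of 29974 and 10148 UMIs. In the AT2-Tracer library they were 8.74% (7.37 to 10.3) and 0.533% (0.230 to 1.05), at median depths of 16969 and 9450 UMIs. Before thinning the AT2-gated shares were 66.3%, 42.7% and 25.4%.

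The upper end of the AT2-gated distribution went beyond the gated background in all 3 libraries, in raw counts that are not scaled for depth. Counts of 10 UMIs or more occurred in 96 of 501 barcodes of the Club-Tracer library (19.2%). There 0 of 58 background barcodes reached that count, which allows a share of up to 6.16%. They occurred in 46 of 335 barcodes of the BASC-Tracer library (13.7%), against 1 of 45 (2.22%), too few barcodes to set that share closely. In the AT2-Tracer library they occurred in 84 of 1534 barcodes (5.48%), against 3 of 1501 (0.200%). AT2-gated barcodes were the deeper in each library. Barcodes under 500 genes, which were left out, held up to 65, 27 and 62 Retnla UMIs (Club-Tracer, BASC-Tracer, AT2-Tracer). Their means were 1.98, 1.16 and 0.309 UMIs, at median depths of 803.5, 783 and 750 UMIs.

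The AT2-gated barcodes with 10 or more Retnla UMIs held more Scgb1a1 than the others. Scgb1a1 levels among Club-Tracer barcodes were 58653 against 18911 CPM, and in the BASC-Tracer library 11905 against 5561 CPM. Cyp2f2, a second club cell gene, was lower in the barcodes with 10 or more Retnla UMIs in the Club-Tracer library (610 against 1082 CPM) and higher in the BASC-Tracer library (756 against 477 CPM). In the AT2-Tracer library both Scgb1a1 values were low, at 153 against 49.8 CPM, and the median AT2-gated barcode with 10 or more Retnla UMIs held no Scgb1a1 UMI. Its 4 highest AT2-gated barcodes held 679, 444, 288 and 283 Retnla UMIs with 0, 1, 3 and 2 Scgb1a1 and 3186, 2951, 1026 and 2841 Sftpc UMIs.

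The ratio of Retnla to Scgb1a1 was compared because free RNA from 1 source keeps its genes in 1 proportion. Retnla UMIs per 100 Scgb1a1 UMIs came to 3.72 in club-gated, 3.45 in AT2-gated and 2.59 in background barcodes of the Club-Tracer library. They came to 4.10, 12.3 and 14.0 among BASC-Tracer barcodes. Without the barcode richest in Retnla in each class these values were 3.78, 7.14 and 2.703. In the AT2-Tracer library the AT2-gated barcodes stood at 340 Retnla UMIs per 100 Scgb1a1 UMIs (321 to 360), against 10.45 (10.2 to 10.7) in the 7 club-gated ones and 36.8 (30.1 to 44.8) in background barcodes. The part of club cell RNA, free or in shared droplets, in the AT2-gated levels of the Club-Tracer and BASC-Tracer libraries was not tested.

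AT1 and transitional barcodes were near or below the background of their library once single barcodes were set aside. AT1 barcodes, gated on genes of the flat gas-exchange cells, stood at 89.8 CPM of Retnla in the Club-Tracer, 18.2 CPM in the BASC-Tracer and 3.30 CPM in the AT2-Tracer library. Transitional barcodes, gated on injury-state genes such as Cldn4 and Sfn, stood at 190, 120 and 1.502 CPM. In the first 2 libraries 1 barcode each, with 444 and 262 Retnla UMIs, held most of this, and without it the levels were 71.0 and 24.5 CPM.

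Among leukocytes of the AT2-Tracer library, Retnla UMIs were found mainly in macrophages with Cd163 and F13a1. In the AT2-Tracer library 231 such barcodes held 358 Retnla UMIs, or 249 CPM (224 to 276). Alveolar macrophages stood at 4.23 CPM (868 barcodes) and macrophages with C1q genes but under the Cd163 limit at 4.72 CPM (484 barcodes). Barcodes high in MHC class II genes stood at 84.4 CPM (69 barcodes), of which 1 barcode held 71 of 74 UMIs. The median Cd163 macrophage barcode held none, and 7 barcodes with 10 or more UMIs held 85.5% of the total. The highest held 134 Retnla and no Scgb1a1 UMIs. No Club-Tracer barcode passed this gate. In the BASC-Tracer library the 74 Cd163 macrophage barcodes stood at 169 CPM against 199 CPM in the other gated leukocytes, and in each of these groups 1 barcode held most of the UMIs. That of the Cd163 macrophages held 98 of 135 UMIs together with 167 Scgb1a1 UMIs, and without it they stood at 46.5 CPM. Between Cd163 macrophages and the other gated leukocytes of the AT2-Tracer library 14.1% of 7981 genes were 2-fold apart, and 7.68% were higher in the former, Retnla among them. In the BASC-Tracer library, where 25.6% were apart and 14.9% higher, Retnla was not among them.

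Retnlg had a different distribution over classes from Retnla. Among classes with at least 20 barcodes it was highest in those that passed both the club and the AT2 gate, at 102.5 CPM (95.3 to 110) in the Club-Tracer and 117 CPM (103 to 132) in the BASC-Tracer library. Club-gated barcodes stood at 51.9 CPM (48.7 to 55.3) and 61.0 CPM (54.1 to 68.6). In the BASC-Tracer library 1 doubly gated barcode held 129 of 265 Retnlg UMIs. Without the barcode richest in Retnlg, that library stood at 61.7 CPM (51.8 to 73.0) in the doubly gated and 45.1 CPM (39.1 to 51.7) in the club-gated class. Upper airway secretory barcodes of the Club-Tracer library stood at 24.9 CPM (20.7 to 29.6). AT2-gated barcodes stood at 38.2 CPM (34.7 to 41.9), 8.58 CPM (6.87 to 10.6) and 4.99 CPM (4.18 to 5.90) in the 3 libraries (Club-Tracer, BASC-Tracer, AT2-Tracer).

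The background was lower for Retnlg than for Retnla. No Retnlg UMI was found in the 58 and 45 background barcodes of the Club-Tracer and BASC-Tracer libraries, with upper bounds of 7.13 and 6.62 CPM. In the AT2-Tracer library 1 of 1501 background barcodes held Retnlg, and it held 28 of the library's 194 Retnlg UMIs. That barcode was the only 1 of the library to pass the neutrophil gate, with no Retnla among its 2381 UMIs. AT1 and transitional barcodes held no more than 2 Retnlg UMIs in any library, and Cd163 macrophages at most 1.

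Retnlg was rare per barcode. A Retnlg UMI was found in 236 of 796 and 50 of 166 club-gated barcodes before thinning, and in 4.90% (3.51 to 6.64) and 5.42% after thinning to 1500 UMIs. The highest values were 97 UMIs in the club gate of the Club-Tracer library, 129 UMIs in the BASC-Tracer library, in a barcode that passed both gates, and 33 UMIs in the AT2-Tracer library, in an AT2-gated barcode with 444 Retnla UMIs. In the AT2 gate, 76 of 501, 38 of 335 and 65 of 1534 barcodes held Retnlg.

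**Figure D4:**
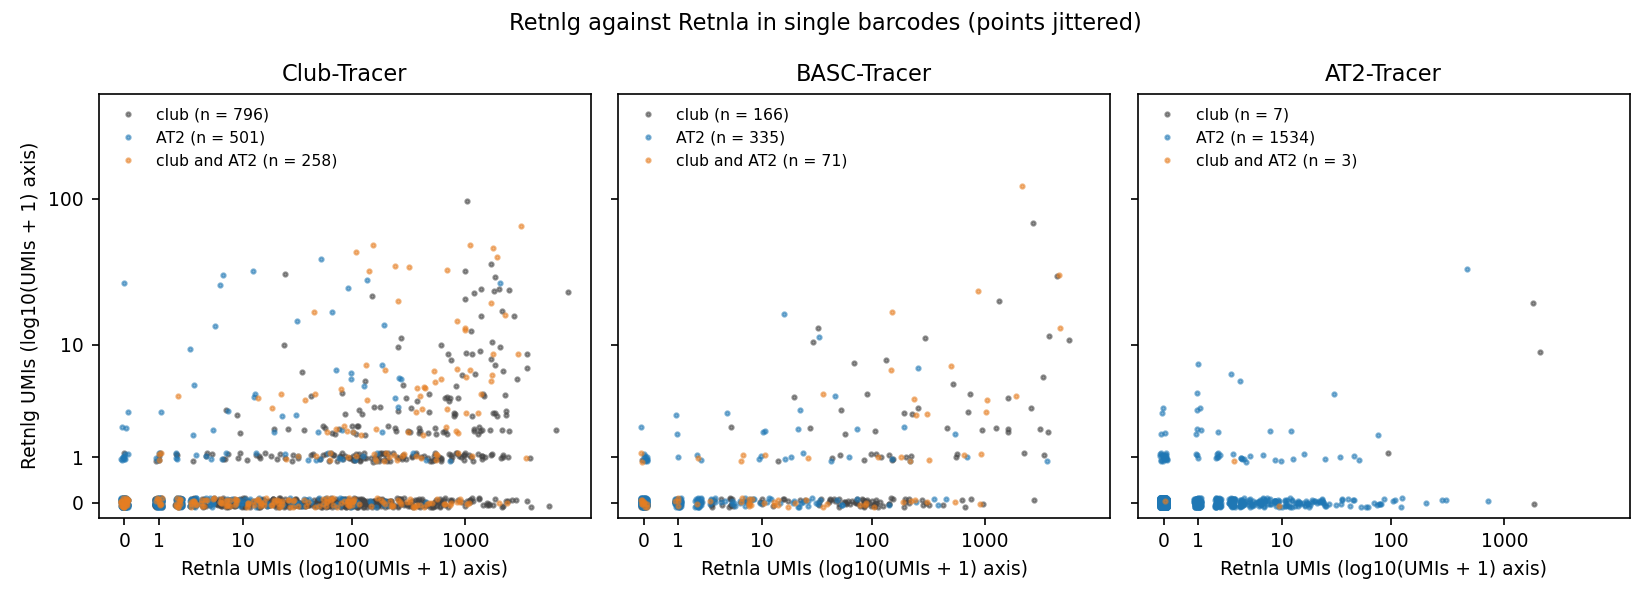
Retnlg (y axis) against Retnla UMIs (x axis) in single barcodes, both on log10(UMIs + 1) axes with jittered points, for club-gated, AT2-gated and doubly gated barcodes of each library. Barcodes with 10 or more Retnlg UMIs lie over a wide range of Retnla, and in the AT2 gate 13, 10 and 25 barcodes hold Retnlg with 0 Retnla UMIs.

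The proportion between the genes differed between classes. Retnlg UMIs per 100 Retnla UMIs came to 0.373 (0.349 to 0.397) in club-gated barcodes of the Club-Tracer library and to 0.448 (0.397 to 0.504) in those of the BASC-Tracer library. Upper airway secretory barcodes of the Club-Tracer library gave 0.402 (0.335 to 0.478). Doubly gated barcodes gave 1.01 (0.937 to 1.08) and 1.17 (1.03 to 1.32), the latter 0.657 without the barcode of 129 Retnlg UMIs. The AT2 gate gave 3.82 (3.47 to 4.202), 1.04 (0.834 to 1.29) and 2.57 (2.15 to 3.05) in the 3 libraries (Club-Tracer, BASC-Tracer, AT2-Tracer). Without the barcode of 3497 Retnla UMIs the BASC-Tracer value was 1.77. With gate limits doubled the AT2 gate gave 2.91 in the Club-Tracer and 1.77 in the BASC-Tracer library, and with limits divided by 2 it gave 5.81 in the Club-Tracer library. AT2-gated barcodes thus held proportionally more Retnlg than club-gated ones in each library where both gates had 20 barcodes.

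Within classes the 2 genes tended to occur together. Spearman correlations between their UMIs per barcode were 0.49 (796 barcodes) and 0.50 (166 barcodes) in the club gate, and 0.43 and 0.29 after division by each barcode's UMIs. In the doubly gated barcodes they were 0.54 (258 barcodes) and 0.56 (71 barcodes). The AT2 gate gave 0.36 (501 barcodes), 0.32 (335 barcodes) and 0.18 (1534 barcodes). These are descriptions over barcodes that share a library, its depth and its free RNA.

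The pattern of each gene over 24 groups of class and library with at least 50 barcodes was compared with that of all other genes, by Pearson correlation of log2(CPM + 5). The groups share libraries and are not independent. Nearest to Retnla among 6497 genes at 50 CPM or more in some group were Cldn10, a claudin that was part of the club gate (0.91), Pon1, which encodes the enzyme paraoxonase (0.90), Retnlg (0.87), Acss2, which encodes an acetyl-CoA synthetase (0.87), and Esr1, which encodes an oestrogen receptor (0.86). Cckar, Scgb1c1 and Scgb3a2 were also among the 10 nearest. Nearest to Retnlg among 11610 genes at 10 CPM or more in some group were Cnga2, an ion channel gene (0.98), the lipase-related gene Pnliprp1 (0.95), the flavin monooxygenase gene Fmo1 (0.93) and Pgam2 (0.91). Acss2, Gask1a, Pon1, Retnla and Gjb6 were also among the 10 nearest. Cnga2, Pnliprp1, Pgam2 and Gask1a reached at most 11.5, 16.4, 13.9 and 13.2 CPM in any group, little above the limit. Their correlations rest on levels near the floor, and nothing is read from them.

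Most other genes tied to type 2 and alternative activation did not follow Retnla from library to library. Among those at 10 CPM or more, Chia1, Itln1 and Cebpd had the same order of libraries. Of 39 listed genes 20 were at 10 CPM or more in the Club-Tracer or the AT2-Tracer library. There were 2 more than 2-fold higher in the Club-Tracer library and 13 more than 2-fold higher in the AT2-Tracer library. The median log2 ratio was -1.34, against -0.28 over all 9218 genes. Of all genes 17.7% were 2-fold apart in either direction and 6.01% were higher in the Club-Tracer library. The non-epithelial background barcodes made up 25.6% of the AT2-Tracer and 1.81% of the Club-Tracer library, so these library ratios also depend on the mix of cells. Chia1, an acidic chitinase gene, stood at 659 CPM in the Club-Tracer, 492 CPM in the BASC-Tracer and 76.3 CPM in the AT2-Tracer library. Itln1, which encodes an intelectin, stood at 13.9, 2.33 and 1.49 CPM. Cebpd stood at 214, 211 and 176 CPM, less than 2-fold apart. Among listed genes under 10 CPM in both the Club-Tracer and the AT2-Tracer library, Spdef, Muc5ac and Alox15 also had this order. Spdef stood at 2.71, 1.54 and 0.434 CPM, Muc5ac at 3.72, 2.58 and 0.145 CPM, and Alox15 at 0.382, 0.036 and 0.029 CPM.

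The genes furthest to the other side were macrophage genes. Chil3, which encodes the chitinase-like protein Ym1, stood at 10.9 CPM in the Club-Tracer and 3627 CPM in the AT2-Tracer library. In the latter it stood at 26618 CPM in alveolar macrophages and 43.8 CPM in AT2-gated barcodes. Mrc1, which encodes the macrophage mannose receptor, stood at 1.05 and 201 CPM. In the Club-Tracer library Il4 and Il5 had no UMI and Il13 stood at 0.017 CPM. In the BASC-Tracer and AT2-Tracer libraries Il4 stood at 0.072 and 0.029 CPM and Il13 at 0.036 and 0.014 CPM. Il5 stood at 0.036 CPM in the BASC-Tracer library and had no UMI in the AT2-Tracer library. All libraries were sorted by reporter colour, so these levels do not describe the whole lung. Club-gated barcodes of the Club-Tracer library held Il4ra at 6.82 CPM, Il13ra1 at 13.01 CPM and Stat6 at 18.0 CPM, against 30.96, 26.7 and 26.6 CPM in its AT2-gated barcodes.

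Of 13 neutrophil markers 4 were at 10 CPM or more in either library. Ltf, the lactoferrin gene, stood at 98.2 CPM in the Club-Tracer and 0.347 CPM in the AT2-Tracer library, with 60.7 CPM in club-gated barcodes. S100a8 stood at 0.432 and 147 CPM, Il1r2 at 4.37 and 12.03 CPM, and Hdc at 79.6 and 52.9 CPM. Other classes of the AT2-Tracer library carried these 3 genes. S100a8 stood at 1004 CPM in alveolar macrophages, Il1r2 at 636 CPM in barcodes high in MHC class II genes and Hdc at 119 CPM in AT2-gated barcodes. Of the other markers, Camp, Ngp and Mmp8 had no UMI in the Club-Tracer library, and S100a9 stood at 0.066 CPM there. Mmp9, Csf3r, Cxcr2, Ly6g and G0s2 stood at 0.050, 0.083, 0.166, 0.332 and 6.45 CPM in that library. Camp and Ngp were also scarce in the AT2-Tracer library, at 0.029 and 0.058 CPM. Of 20 airway secretory genes 19 were at 10 CPM or more and 18 were more than 2-fold higher in the Club-Tracer library, with a median log2 ratio of 4.40. Over all 9218 genes the share higher there was 6.01%. The list holds Scgb1a1 and markers of the club and upper airway gates, and Scgb1a1 drove the label by which that library was sorted. The count therefore describes the sort and is no result. Scgb3a1 (4822 against 1.605 CPM) and Bpifa1 (925 against 0.145 CPM) lay at the upper end, and Tff2 (12.6 against 0 CPM) and Msln (31.4 against 15.8 CPM) at the lower end.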

How the data were processed

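Single-cell RNA was measured in 3 libraries of sorted mouse lung cells, 1 per group, made with 5′ gene expression chemistry and pooled for sequencing, per the labels' protocols. The authors deposited raw UMI counts per gene and barcode, with Cell Ranger 6.1.1 and genome build mm10 named in the submitters' processing notes. For the annotation used in counting, the release is not given in the sources.

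Barcodes under 500 genes or over 15% mitochondrial UMIs were left out (1872 and 236 in the Club-Tracer, 959 and 78 in the BASC-Tracer, 2686 and 339 in the AT2-Tracer library). Classes were gated on summed UMIs of 18 marker sets per 10000 UMIs, in barcodes with 2000 or more UMIs, with limits set after the marker distributions were seen and never from Retnla or Retnlg. Doublets stayed in the main values and were taken out as an alternative, by Scrublet score at 0.8% per 1000 barcodes. Summed counts were scaled to CPM with exact Poisson 95% intervals, ratios carry exact conditional intervals, and shares exact Clopper-Pearson intervals. The bound given for a count of 0 is the upper end of these intervals. Shares were compared after thinning to 1500 UMIs, leaving out shallower barcodes. Fold sizes across genes used log2(CPM + 5) among genes at 10 CPM or more in either group, which understates differences of low genes. No test between groups was possible with 1 library each. The members, the gene lists and the likeness rule (the 10 genes nearest to each member, and the 2 highest and 2 lowest of each list from Club-Tracer to AT2-Tracer) were chosen with earlier results of these data known. Some of the nearest genes are not reported here.

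The limit of 10 Retnla UMIs, the split of club-gated barcodes, its repeat at 20000 UMIs and the values without single barcodes were chosen after values were seen.

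The ratio and thinning steps were tested on simulated data. Calculations used Python 3.11.15 with numpy 2.4.6, scipy 1.17.1, pandas 2.3.3, scanpy 1.11.5 and matplotlib 3.10.9.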

Additional observations from a re-analysis of the deposited data

Results flagged for a closer look

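Retnla UMIs also appeared in barcodes outside the analysis, those with fewer than 500 detected genes. These stood at 2197 CPM (2127 to 2269, 1872 barcodes) in the Club-Tracer, 1220 CPM (1149 to 1294, 959 barcodes) in the BASC-Tracer and 366 CPM (341 to 391.5, 2686 barcodes) in the AT2-Tracer library. The median count was 1, 0 and 0 UMIs and the highest 65, 27 and 62. These levels lie above the 67.7, 196 and 9.03 CPM of the gated background barcodes of the same libraries. The 196 CPM is 16.2 CPM without 1 barcode. The low-gene levels also lie above the 999.8, 824 and 194 CPM of the AT2-gated barcodes, and the reason was not tested. Retnlg stood at 9.46, 9.88 and 2.20 CPM in the same low-gene barcodes, from 16, 9 and 5 UMIs.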

How the results depend on the processing

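Of the values that answer a comparison, 67 recomputed ones moved by less than their counting interval and 45 moved by more. Library totals changed little with the barcode filters: Retnla stood at 175 CPM in the AT2-Tracer library from 200 genes, at 6527 (Club-Tracer) and 3534 CPM (BASC-Tracer) at 10% mitochondrial UMIs and at 6434 CPM in the Club-Tracer library at 25%, and Retnlg at 2.42 CPM in the AT2-Tracer library from 1000 genes. Scaled without Scgb1a1, Sftpc and mitochondrial genes, Retnla stood at 8246, 4032 and 181 CPM and Retnlg at 50.7 and 29.5 CPM (Club-Tracer, BASC-Tracer) in the libraries, and Retnla at 22912 and 20897 CPM in the club gate and 1135, 914 and 221 CPM in the AT2 gate. Without top-scored doublets Retnla stood at 87.1 CPM in the AT2-Tracer library and 765 CPM in the BASC-Tracer AT2 gate. Doubled gate limits gave Retnla at 14432 and 14323 CPM (club) and 2338, 564 and 224 CPM (AT2), with 2.91 and 1.77 Retnlg per 100 Retnla UMIs in the AT2 gate (Club-Tracer, BASC-Tracer). Limits divided by 2 gave 14007 and 9023 CPM (club) and 563, 645 and 171 CPM (AT2), with 0.327 and 0.355 Retnlg per 100 Retnla UMIs in the club gate and 5.81 in the Club-Tracer AT2 gate. The next alternatives were chosen after seeing the data. From 4000 UMIs the club gate stood at 13991 and 13361 CPM. Without the 1% of barcodes with the most Retnla, the libraries stood at 4979, 1774 and 23.6 CPM of Retnla and 37.1, 19.6 and 1.8 CPM of Retnlg, the club gate at 12199 and 11752 CPM and the AT2 gate at 664, 366 and 90.7 CPM. The neutrophil-gated barcode of the AT2-Tracer library held 28 of its 194 Retnlg UMIs. It had 850 genes and so dropped out at the limit of 1000 genes. Beyond this, the cause of these moves was not tested.

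No paired analysis was possible because each group is 1 library, and for the same reason leaving out replicates does not apply. Endothelial barcodes, of which 2, 0 and 6 were gated, were too few for the background. The 58 and 45 background barcodes of the Club-Tracer and BASC-Tracer libraries are few, and set wide intervals there.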

Other observations

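Retnlb, whose transcript matched that of Retnla at 74.8% and that of Retnlg at 76.9% of aligned bases, was found mainly in secretory barcodes. It had 104 of its 158 UMIs in the Club-Tracer library in club-gated barcodes, at 5.54 CPM, and 31 of 63 in the BASC-Tracer library, at 6.78 CPM. The 3 barcodes with the most Retnlb in the Club-Tracer library held 22, 22 and 15 Retnlb UMIs with 1206, 26 and 341 Retnla UMIs.

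Among barcodes of 500 or more genes but under 2000 UMIs, which entered no gate, Retnla stood at 2582 CPM in the Club-Tracer, 2819 CPM in the BASC-Tracer and 56.9 CPM in the AT2-Tracer library.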
